A study of Homo sapiens with 6 samples.

Results

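*LRP2* encodes megalin, one of the giant endocytic receptors of the LDL receptor family, and its transcript was near 0 in every SH-SY5Y library that received Ad CMV GFP and present at about 20.9 CPM (counts per 1000000 counted reads) in every library that received Ad CMV 3xFlag-*Esrrg*. The 9 genes described here, of 67060 in the count table, are *LRP2* and the family members listed beside it: *LRP1*, *LRP1B*, *LRP4*, *LRP5*, *LRP6*, *LRP8*, *LRP10* and *VLDLR*. *LRP2* was chosen by its counts in this same comparison, so it is given as values with no test. The other members were listed by family. The filter on low counts was passed by 8 members, and *LRP6*, listed at 0 in all 6 libraries, did not pass. Family members other than *LRP2* did not move as one: *VLDLR* and *LRP5* were called higher, *LRP4* was called lower, and the remaining 4 tested members did not reach the call, an adjusted p below 0.05 with at least a 1.5-fold change, which 34.1% of all tested genes reached.

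LDL receptor family proteins are single-pass membrane receptors that bind lipoproteins, protease complexes, carrier proteins and signalling ligands at the cell surface and bring them into the cell through clathrin-coated pits. A helper chaperone keeps them from binding ligands while they fold, and adaptors that recognise short motifs in their tails sort them. Megalin is best known from absorptive epithelia, such as the kidney proximal tubule, the choroid plexus, the thyroid and the yolk sac, and in the embryonic forebrain it takes part in Sonic hedgehog signalling. Its relatives in neurons carry other signals: the Reelin signal through *VLDLR* and *LRP8*, the WNT signal through *LRP5* and *LRP6*, and the Agrin signal at the neuromuscular junction through *LRP4*.

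SH-SY5Y cells come from a human neuroblastoma and are labelled as a neuronal progenitor. Cells in serum-containing medium received an adenovirus carrying the mouse *Esrrg* coding sequence with a 3xFlag tag behind the broadly active CMV promoter (Ad CMV 3xFlag-*Esrrg*, the group labelled ERRg) or the control virus Ad CMV GFP (the group labelled GFP), and total RNA was taken 24 h later. *Esrrg* encodes ERRγ, an orphan nuclear receptor, and the comparison asks which transcripts differ when it is overexpressed. There were 3 libraries per group, replicates 1, 3 and 4 of GFP and replicates 2, 3 and 4 of ERRg, no group without virus, and no statement that replicates were separate cultures, so p-values measure only the spread between these libraries, which may be technical.

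Libraries held 24969759 to 40859666 counts on genes. *ESRRG* rose 8.12-fold, from 83.6 to 90.4 CPM with GFP to between 569.6 and 777.7 CPM with ERRg (log2 fold change 3.02, standard error 0.14, adjusted p = 6.3e-07, edgeR's quasi-likelihood test with Benjamini-Hochberg adjustment over 24500 genes). The virus carries mouse *Esrrg* and reads were counted on human *ESRRG*, so this count mixes the cells' own transcript with whatever part of the transgene aligned and does not measure the overexpression. The quasi-likelihood test, with TMM scaling, gave every p that follows unless another fit is named beside it. Over all tested genes, 17.3% were called higher and 16.8% lower. With library size as the only scaling the median log2 fold change of all tested genes moved from -0.10 to -0.42, and 22.5% of the calls were higher in place of 50.7%. Reads outside genes (assigned to no feature) were 51.3% to 52.2% of the reads with GFP and 46.6%, 31.6% and 29.5% in ERRg replicates 2, 3 and 4. The groups did not overlap in this share, so a fit with it as a covariate takes its slope mostly from the ERRg libraries. Such a fit cannot well separate the share from the virus, and calls gained or lost in it are given with that limit. Of 8 adrenergic neuroblastoma markers, *TH* and *CHGA* were listed at 0, which says nothing of their expression, since the tubulin gene *TUBB* was too. The other 6 were tested, and their summed level, most of it *HAND2*, was 639 to 695 CPM with GFP and 498 to 657 CPM with ERRg. Of these, *DBH* was called lower (-2.64, adjusted p = 1.3e-06) and *PHOX2A* higher (0.81, adjusted p = 0.0014), the latter not with library size only (0.47), after correction for GC content and length (0.41) or with reads outside genes as a covariate (0.25). The 8 mesenchymal or Schwann-like markers, all tested, summed to 3489 to 3543 CPM with GFP and 4040 to 4139 CPM with ERRg, most of it *FN1* (0.46, adjusted p = 0.0079, under the fold of a call). None was called higher, 3 were called lower, *YAP1* (-0.67), *COL1A2* (-1.47) and *LUM* (-1.15), and the median was -0.057. The part of either marker set in the members' values was not tested.

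The sequences just before the start sites of *LRP2*, *VLDLR* and *LRP5* are shown because these members had higher levels with ERRg. RefSeq (GRCh38.p14) gave a promoter for 6 of the 9 members (*LRP2*, *LRP1*, *LRP8*, *VLDLR*, *LRP5* and *LRP10*). Each printed sequence is the 250 bases before the start site, 5′ to 3′ on the gene's strand, and capitals mark the GC box GGGCGG, a site of Sp1-type factors, on either strand (CCGCCC where it lies on the other strand). The start site RefSeq gives for *VLDLR* lies inside the longer span given for the gene, so its printed bases fall within that span.
*LRP2* (chr2:169362535-169362784, minus strand): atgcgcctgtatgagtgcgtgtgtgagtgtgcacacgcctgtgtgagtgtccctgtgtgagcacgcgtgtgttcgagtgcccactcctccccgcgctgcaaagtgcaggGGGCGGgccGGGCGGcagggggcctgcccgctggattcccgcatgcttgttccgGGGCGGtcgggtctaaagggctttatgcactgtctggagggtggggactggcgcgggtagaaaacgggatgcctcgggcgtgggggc
*VLDLR* (chr9:2621537-2621786, plus strand): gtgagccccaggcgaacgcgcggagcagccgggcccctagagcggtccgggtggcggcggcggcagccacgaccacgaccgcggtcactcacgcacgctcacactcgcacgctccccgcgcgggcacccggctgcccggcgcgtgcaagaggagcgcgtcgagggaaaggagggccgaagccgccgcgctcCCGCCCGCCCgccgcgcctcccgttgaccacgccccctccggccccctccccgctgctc
*LRP5* (chr11:68312341-68312590, plus strand): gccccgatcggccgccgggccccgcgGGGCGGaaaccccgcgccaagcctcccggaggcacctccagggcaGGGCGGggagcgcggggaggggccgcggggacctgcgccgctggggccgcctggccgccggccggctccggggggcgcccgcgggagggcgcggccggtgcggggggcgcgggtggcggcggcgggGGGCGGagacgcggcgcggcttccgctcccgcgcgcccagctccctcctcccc
The *LRP2* sequence has 3 GC boxes, at -141, -132 and -87 from the start site. *VLDLR* has 2 that overlap each other, at -59 and -55 on the other strand, and *LRP5* has 3. The GC box was found within 250 bases before to 50 bases after the start in 6 of 6 members and in 45.0% of 35116 promoters of the same length. The ERR response element TNAAGGTCA (0.951% of all promoters), the nuclear receptor core site AGGTCA that it contains (13.8%) and the TATA box TATAAA (11.5%) were searched on both strands in the same windows, and each was found in 0 of the 6 members. That says only that these letters are not in these windows.

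*LRP2* (ENSG00000081479) lies on the minus strand of chromosome 2, from 169127109 to 169362534 (GRCh38), a span of 235.4 kb with 16109 bases of merged exons. Its counts were 0, 0 and 1 in GFP replicates 1, 3 and 4, and 542, 739 and 698 in ERRg replicates 2, 3 and 4. In normalized units these were 0, 0 and 0.0302 CPM with GFP and 20.3, 21.95 and 20.5 CPM with ERRg. All 3 ERRg libraries stood far above all 3 GFP libraries. Against a floor of 3 counts in each GFP library, worth 0.0906 to 0.106 CPM, *LRP2* was at least 213-fold higher with ERRg, and the ERRg libraries taken singly gave at least 207-, 224- and 209-fold. This bound covers counting error only.

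The ERRg libraries were close to each other, at 20.9 ± 0.915 CPM (SD, n = 3), with a highest to lowest ratio of 1.08. Over the same libraries the *ESRRG* counts ran from 15228 to 26497, and *LRP2* gave 3.56, 2.84 and 2.63 counts for every 100 counts on human *ESRRG* in replicates 2, 3 and 4. Its mean with ERRg was above that of 67.5% of the tested genes, whose median was 4.27 CPM. In RNA from whole cultures, more cells with the transcript and more transcript per cell cannot be told apart.

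**Figure D1:**
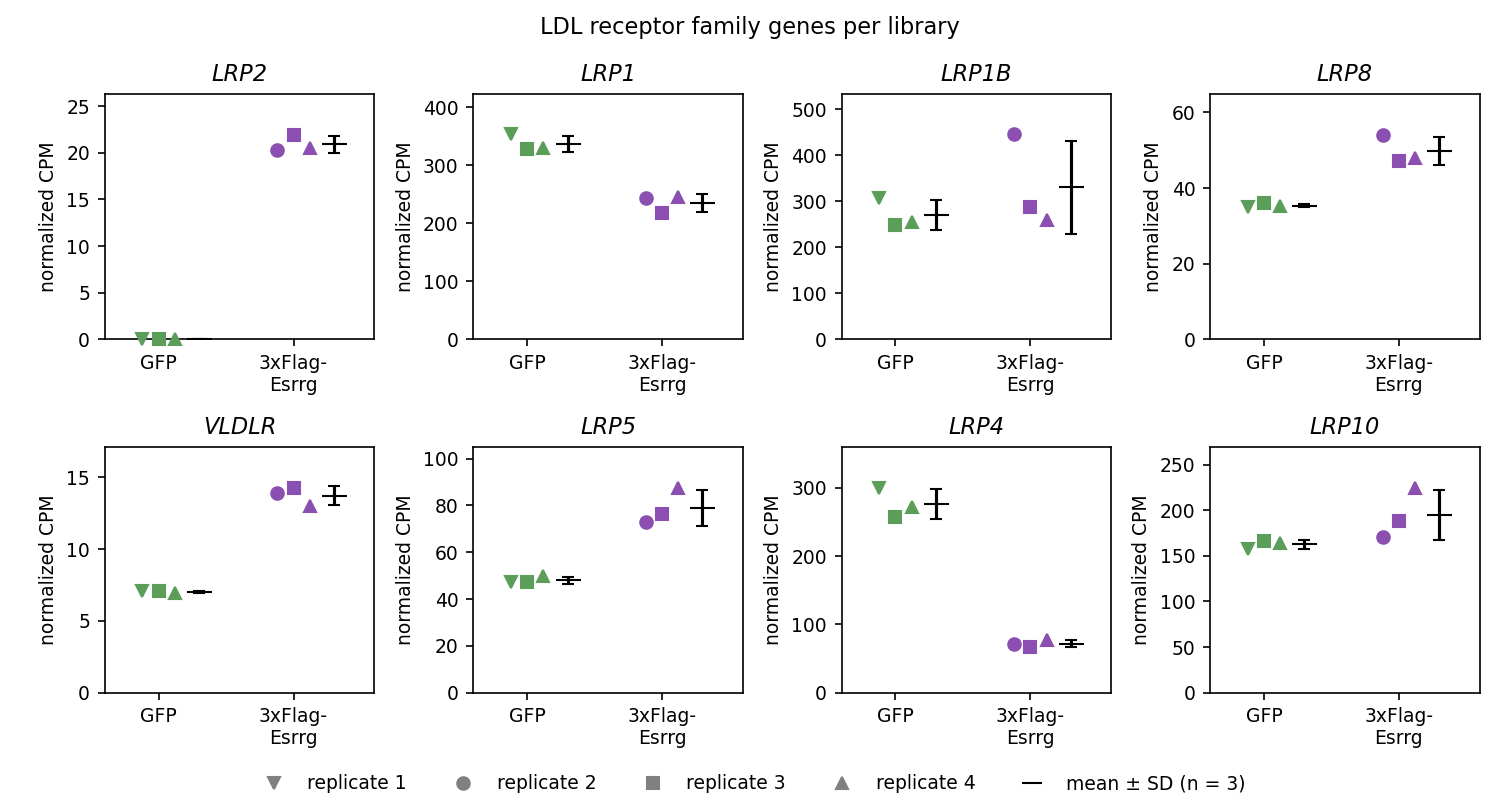
Normalized CPM (linear axis from 0, scaled per gene) of 8 family members in each library, by virus (GFP, green; 3xFlag-*Esrrg*, purple) and replicate number (marker shape), with the mean ± SD of 3 libraries beside the points; *LRP6* is at 0 and not drawn. *LRP2* sits at 0 to 0.0302 CPM with GFP and 20.3 to 21.95 CPM with ERRg, *LRP4* at 258 to 300.0 CPM with GFP and 67.0 to 77.2 CPM with ERRg, and of the 8 genes drawn only *LRP1B* has overlapping groups.

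Markers of the epithelia in which megalin is best known were read beside it. Of 10 kidney proximal tubule markers, 8 were under 1 CPM in both groups, and the summed level was 21.1 to 22.9 CPM with GFP and 14.6 to 16.8 CPM with ERRg, most of it *CUBN*. The 6 choroid plexus markers summed to 8.02 to 9.18 CPM with GFP and 4.67 to 6.66 CPM with ERRg. *KCNJ13* was at 6.03 and 4.65 CPM (-0.39, adjusted p = 0.12). *AQP1*, at 2.29 and 0.689 CPM, was called lower (-1.72, adjusted p = 2.8e-04). The group means of *TTR*, *FOLR1*, *FOXJ1* and *CLIC6* lay between 0 and 0.0420 CPM. The 5 thyroid markers summed to 4.49 to 5.53 CPM with GFP and 1.91 to 2.21 CPM with ERRg. All 7 yolk sac markers were under 1 CPM in both groups, and none was tested. Their sum was 0.142 to 0.162 CPM with GFP and 0.440 to 0.636 CPM with ERRg. *APOB* had 4, 4 and 2 counts with GFP and 14, 16 and 13 with ERRg. With no filter on low counts *APOB* was called higher (2.04, adjusted p = 0.0026). *APOA1* had 0 counts in every GFP library and 2 in every ERRg library. *AFP* and *TTR* had 0 to 2 counts per library. The transcription factors *FOXA1*, *FOXA2* and *HNF4A* were listed at 0, which says nothing of their expression.

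No annotated gene overlaps *LRP2*, and its tested neighbours, all on the side of higher coordinates, did not share its pattern. On the side of lower coordinates no neighbour passed the filter on low counts. There the retinol dehydrogenase gene *DHRS9*, 30.9 kb away, had 3 counts in 1 ERRg library and 0 elsewhere. *SPC25*, a kinetochore gene 213.7 kb away, had 1 count in each of 2 libraries. *ABCB11*, the bile salt export pump, was listed at 0 in all libraries, which says nothing of its expression. On the other side, *BBS5*, a cilium gene 116.9 kb from *LRP2*, was at 5.41 CPM with GFP and 5.23 CPM with ERRg (log2 fold change -0.044, adjusted p = 0.84). *FASTKD1*, a gene of mitochondrial RNA handling, was at 30.9 and 32.9 CPM (0.09, adjusted p = 0.5), and *KLHL41*, a muscle gene, at 0.744 and 0.377 CPM (-0.94, adjusted p = 0.083).

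The 5 tested genes whose 6 values of log2 CPM lay nearest to those of *LRP2* by Euclidean distance were *CCBE1*, *FRMD1*, *ALOX5AP*, *TRIM72* and *CXCL14*. *CCBE1*, which encodes a secreted factor of lymphatic growth, was nearest, at a distance of 3.51, with 3, 11 and 6 counts with GFP and 315, 475 and 580 with ERRg. *FRMD1*, of the FERM domain family, had 7, 1 and 2 counts with GFP and 98, 126 and 128 with ERRg (distance 4.90). *ALOX5AP*, the partner of 5-lipoxygenase in leukotriene synthesis, the membrane repair gene *TRIM72* and the chemokine *CXCL14* followed at 5.05, 5.16 and 5.30. All 5 were chosen by the same libraries, so these values are descriptions. In every ERRg library *LRP2* was the highest of the 6 genes.

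**Figure D2:**
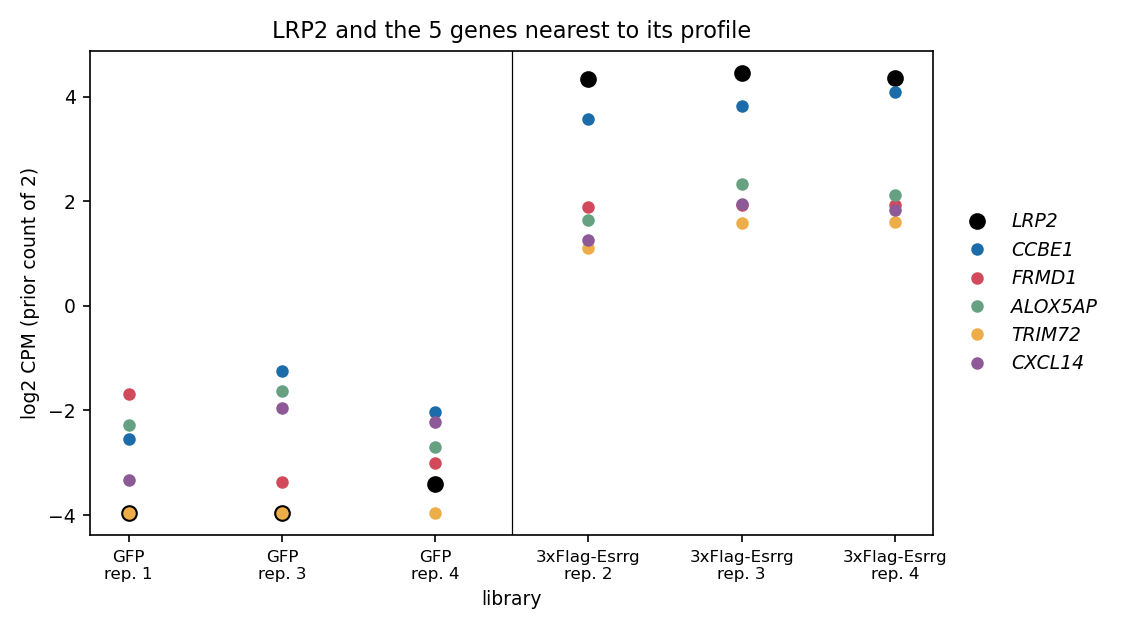
Log2 CPM (prior count of 2) of *LRP2* (black) and the 5 genes nearest to its profile in each of the 6 libraries. All 6 genes lie below 0 in the GFP libraries and above 0 in the ERRg libraries, with *LRP2* on top in each ERRg library and *CCBE1* next.

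The other giant endocytic receptors did not share the pattern of *LRP2*. *LRP1* (ENSG00000123384, chromosome 12, 57128483 to 57213361, plus strand), a receptor for apolipoprotein E and protease complexes, was at 353, 327 and 330 CPM in GFP replicates 1, 3 and 4 and at 244, 217 and 245 CPM in ERRg replicates 2, 3 and 4. Every ERRg library was below every GFP library. The mean went from 337 ± 14.1 to 235 ± 15.6 CPM (SD, n = 3), a 1.43-fold decrease (log2 fold change -0.52, standard error 0.10, adjusted p = 0.0017), past the p but under the fold of a call. *LRP1* was called lower with library size as the only scaling (-0.83), among protein-coding genes alone (-0.65) and after correction for GC content and length (-0.76). Its antisense gene *LRP1-AS*, at 0.994 and 0.598 CPM (-0.74, adjusted p = 0.039), lost its call without GFP replicate 1, 3 or 4 or without ERRg replicate 2, 3 or 4, where the adjusted p was 0.055 to 0.13. *LRP1-AS* also lost its call with DESeq2 (adjusted p = 0.13), with RLE scaling in edgeR (0.055) and with no filter on low counts (0.081).

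*LRP1B* (ENSG00000168702, chromosome 2, 140231423 to 142131016, minus strand) encodes a close relative of *LRP1* that is often deleted in tumours. It had 308, 249 and 254 CPM with GFP and 445, 287 and 259 CPM with ERRg. ERRg replicate 2 stood apart, and the other ERRg libraries lay within the range of GFP. On the log2 scale it differed by 0.29 (standard error 0.19, adjusted p = 0.22), and by 0.12 without ERRg replicate 2 and 0.44 without ERRg replicate 4. After correction for GC content and length it was 0.56 (adjusted p = 0.01), and 0.44 with that correction in the replicate block (adjusted p = 7.3e-20), past the p and under the fold of a call. Scaling by library size alone gave -0.00025, and a fit with reads outside genes as a covariate gave 0.96 (adjusted p = 3.0e-08), a call. The share of such reads was highest among the ERRg libraries in the same replicate 2, at 46.6%, so that fit leans on the library that stood apart. The part of this share in the result was not tested. The 6 tested genes inside the span of *LRP1B*, pseudogenes and small RNA genes, had adjusted p from 0.31 to 0.78.

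Among the smaller core receptors, *VLDLR* (ENSG00000147852, chromosome 9, 2621182 to 2660056, plus strand) binds Reelin and apolipoprotein E-rich particles. Its level was 7.06, 7.08 and 6.95 CPM with GFP and 13.9, 14.3 and 13.0 CPM with ERRg. The GFP libraries were almost equal, and every ERRg library lay well above them. The mean rose from 7.03 ± 0.0708 to 13.7 ± 0.645 CPM (SD, n = 3), 1.95-fold (log2 fold change 0.96, standard error 0.11, adjusted p = 1.0e-04), and it was called higher in every fit with the 1.5-fold cutoff. Other genes on the opposite strand covered 8.24% of its exon bases. Most of this was ENSG00000286670, which shares 1100 bases, was at 0.236 CPM with GFP and 0.243 CPM with ERRg, and was not tested. *VLDLR-AS1*, which shares 260 bases, rose from 0.437 to 1.503 CPM (log2 fold change 1.77, adjusted p = 0.0017). The strand setting of the counting is not given in the sources used here, so reads over bases that *VLDLR* shares with either gene cannot be told apart.

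*LRP8* (ENSG00000157193, chromosome 1, 53242364 to 53328469, minus strand), the other Reelin receptor and a receptor for selenoprotein P, was at 35.1, 36.0 and 35.2 CPM with GFP and 54.2, 47.2 and 48.0 CPM with ERRg. Again the groups did not overlap. The 1.41-fold increase (log2 fold change 0.49, standard error 0.093, adjusted p = 0.0016) passed the p and was under the fold of a call. With reads outside genes as a covariate it was called, at 0.67. Other genes on the opposite strand covered 9.69% of its exon bases. Among them, ENSG00000234578 shares 467 bases with *LRP8*, was at 0 in all libraries and was not tested. The rest of the genes covering these bases were tested and had adjusted p from 0.32 to 0.96.

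The WNT co-receptor *LRP5* (ENSG00000162337, chromosome 11, 68312591 to 68449275, plus strand), which passes on the WNT signal beside Frizzled receptors, had 47.1, 47.3 and 49.7 CPM with GFP and 72.7, 76.5 and 87.5 CPM with ERRg. All ERRg libraries were above all GFP libraries, and ERRg replicate 4 was highest. It rose 1.64-fold (log2 fold change 0.72, standard error 0.10, adjusted p = 2.7e-04). It was no longer called with library size as the only scaling (0.39), among protein-coding genes alone (0.58), after correction for GC content and length (0.26) or with reads outside genes as a covariate (0.52). Its longest transcript has 62.9% GC, against 42.8% for *VLDLR*.

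The partner co-receptor *LRP6* (ENSG00000070018, chromosome 12, 12116025 to 12267044, minus strand) was listed at 0 in all 6 libraries. This says nothing of its expression, since *TUBB*, a tubulin gene that every cell uses, was also listed at 0. After the 0 had been seen, the 11 protein-coding genes that overlap or lie nearest to *LRP6* were read: 7 were at 0 in all libraries, among them *BCL2L14*, which overlaps it, and the neighbours *MANSC1*, *BORCS5* and *DUSP16*. Farther out, *ETV6* (220.6 kb away) had 12896 counts and *CREBL2* (344.8 kb away) 7405 counts over the 6 libraries. Of the 31-base words of *LRP6*, 0.2% were found in 261 alternate contigs of the genome.

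The strongest change among the tested members other than *LRP2* was in *LRP4* (ENSG00000134569, chromosome 11, 46856717 to 46918642, minus strand), the Agrin receptor that activates MuSK at the neuromuscular junction and also dampens WNT signalling. It had 300.0, 258 and 271 CPM in the GFP libraries. In the ERRg libraries it had 71.0, 67.0 and 77.2 CPM. The groups were far apart. The mean fell from 276 ± 21.6 to 71.7 ± 5.12 CPM (SD, n = 3), 3.85-fold (log2 fold change -1.95, standard error 0.11, adjusted p = 1.6e-06), and *LRP4* was called lower in every fit run. A lower log2 fold change was found in 1.13% of the tested genes. Its antisense gene *LRP4-AS1*, which shares 515 exon bases with it on the opposite strand, fell from 6.74 to 1.24 CPM (-2.42, adjusted p = 2.2e-05), and since the strand setting is not given, the reads of the 2 genes over those bases cannot be told apart.

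*LRP10* (ENSG00000197324, chromosome 14, 22871740 to 22881713, plus strand), a more distant relative that moves between the trans-Golgi network and endosomes, had 157, 166 and 164 CPM with GFP and 171, 188 and 225 CPM with ERRg. The ERRg libraries were all higher but spread widely. On the log2 scale it was 0.26 higher (standard error 0.11, adjusted p = 0.082), which did not pass the p. It passed the p, under the fold of a call, with DESeq2 (0.34, adjusted p = 0.042) and without ERRg replicate 2 (0.45, adjusted p = 7.4e-06). It was 0.32 with the replicate block in edgeR and 0.15 without ERRg replicate 4. It was negative with library size as the only scaling (-0.069), after correction for GC content and length (-0.064) and with reads outside genes as a covariate (-0.039).

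Of the 7 tested members other than *LRP2*, 3 were called, 2 higher and 1 lower, where 34.1% of all tested genes were called. Among protein-coding genes alone 1 member was higher and 2 were lower, where 2814 of 13746 tested genes were higher and 2468 lower. The p alone was passed by 5 of them, against 47.8% of all tested genes, and the libraries of the groups did not overlap for 6, against 58.1%. Their median log2 fold change was 0.29, and that of all tested genes was -0.10, with the 5th and 95th percentiles of all genes at -1.23 and 1.19. *LRP4* lay outside this range. *VLDLR*, at the other end, was above 91.1% of tested genes. An exact permutation test of 3 libraries against 3 cannot give a two-sided p below 0.1, so each call rests on the model fitted across genes.

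**Figure D3:**
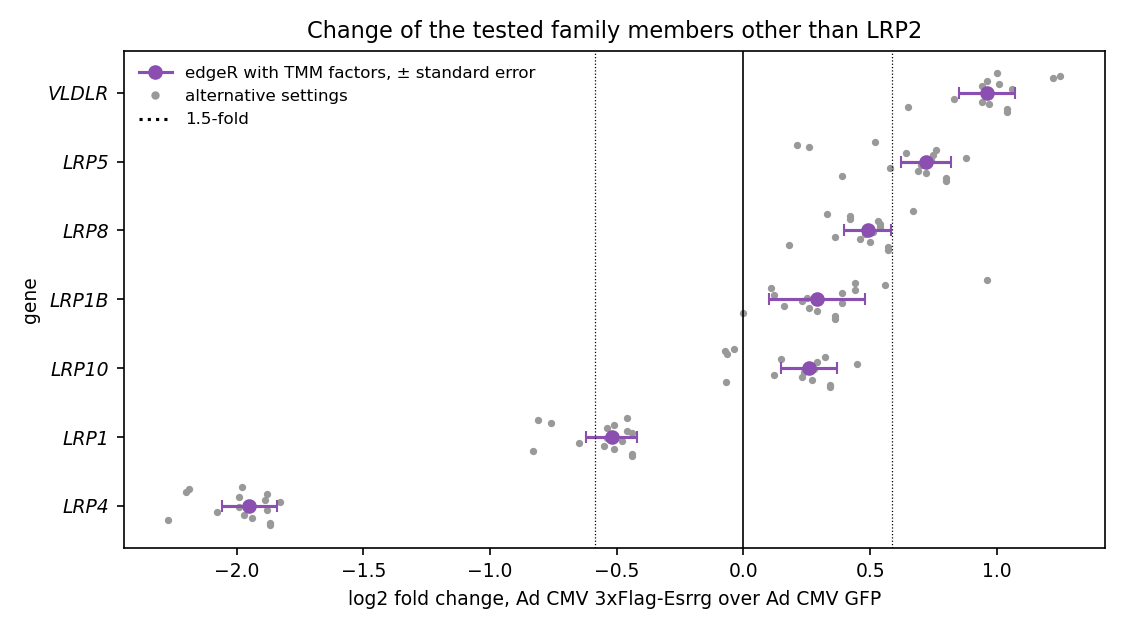
Log2 fold change (ERRg over GFP) of the 7 tested members other than *LRP2*, with edgeR's estimate ± standard error in purple and each alternative setting as a grey point; dotted lines mark 1.5-fold in either direction. *LRP4* lies between -2.27 and -1.83 and *VLDLR* above 1.5-fold in every setting, *LRP5* falls below the dotted line in 5 settings, and *LRP10* and *LRP1B* turn negative in 4 settings and 1 setting.

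Levels of different genes were compared as CPM per kb of merged exons. With GFP, *LRP4* was highest at 31.6 CPM per kb, followed by *LRP10* at 22.8, *LRP1B* at 16.5, *LRP1* at 16.1, *LRP5* at 7.77, *LRP8* at 1.80, *VLDLR* at 0.426 and *LRP2* at 0.000625. The libraries of *LRP1B* and *LRP1* overlapped, and those of every other pair of neighbours down to *LRP2* did not. With ERRg, *LRP10* led at 27.3 CPM per kb, overlapping with *LRP1B* at 20.2. After them came *LRP5* at 12.8, *LRP1* at 11.3, *LRP4* at 8.20, *LRP8* at 2.53, *LRP2* at 1.30 and *VLDLR* at 0.831, without overlap between neighbours. *LRP4* thus went from the top to the fifth place. Per length of the longest transcript in place of merged exons, *VLDLR* stood above *LRP2* with ERRg, and *LRP1* above *LRP5*.

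The summed level of the family was 97.1 ± 4.33 CPM per kb with GFP and 84.4 ± 4.67 CPM per kb with ERRg (SD, n = 3). *LRP6*, listed at 0, adds nothing to this sum, so the shares are in effect those of the other members. *LRP4* made up 32.5% ± 1.10 of that sum with GFP and 9.72% ± 0.463 with ERRg. The share of *LRP10* was 23.6% ± 1.71 with GFP and 32.4% ± 4.61 with ERRg, and that of *LRP5* was 8.01% ± 0.486 and 15.1% ± 1.53. *LRP2* was 1.54% ± 0.157 of the summed level with ERRg.

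**Figure D4:**
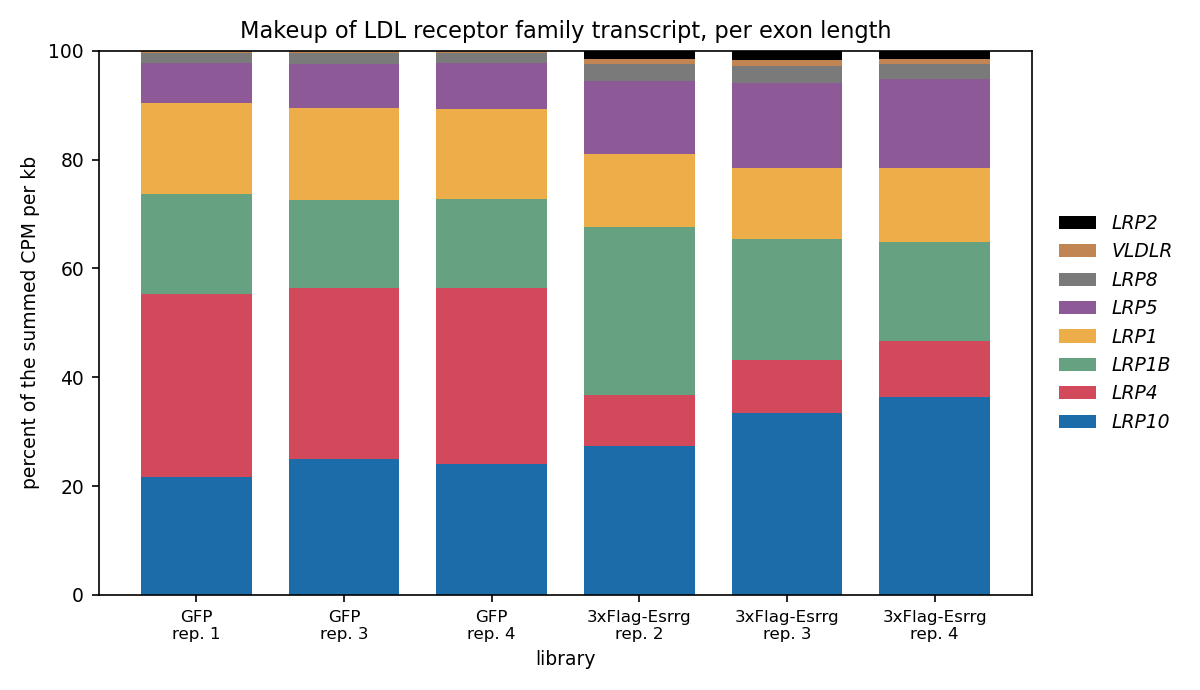
Percent of the summed CPM per kb of merged exons contributed by each family member in each library, with *LRP6* listed at 0. The red band of *LRP4* is 32.5% on average with GFP and 9.72% with ERRg, and *LRP2* (black, at the top) is visible in the ERRg libraries, at 1.44% to 1.72%.

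Lists of genes that work with the family, 8 in all, held 156 genes, of which 129 were tested and 6 were listed at 0. With ERRg 34 were higher and 14 lower, 37.2% of those tested against 34.1% of all tested genes, with a median log2 fold change of 0.24 against -0.10. That background includes genes that are not protein-coding. Among protein-coding genes alone 28 list genes were higher and 18 lower. In that fit 2814 of all 13746 tested genes were higher and 2468 lower, with a median of -0.014. The lists are thus not shown to be called more often than like genes. Without ERRg replicate 2, 52 were higher, and after scaling by library size alone 16 were higher and 33 lower. In the list of 10 more distant family relatives, 9 were tested and 2 were called, both higher (median -0.32). *CD320*, the receptor that takes up vitamin B12 on transcobalamin, rose from 19.5 ± 2.57 to 59.4 ± 15.7 CPM (log2 fold change 1.61, adjusted p = 9.5e-05).

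The partners of megalin differed in direction. Its co-receptor cubilin, *CUBN*, was at 18.1, 16.3 and 17.9 CPM with GFP and 12.7, 11.6 and 12.4 CPM with ERRg (log2 fold change -0.51, adjusted p = 0.0025, under the fold of a call), and was called lower with library size as the only scaling (-0.83) and among protein-coding genes alone (-0.64). *AMN*, which anchors cubilin in the membrane, was at 0.466 and 0.365 CPM (-0.33, adjusted p = 0.49), and *DAB2*, the adaptor that drives megalin uptake in epithelia, was listed at 0, which says nothing of its expression. The family's folding helpers were higher. *LRPAP1*, the receptor-associated protein that shields ligand sites during folding, rose from 67.3 ± 3.88 to 127 ± 17.1 CPM (0.91, adjusted p = 1.6e-04), and *MESD*, the chaperone of *LRP5* and *LRP6*, from 48.7 ± 0.680 to 82.4 ± 13.0 CPM (0.76, adjusted p = 5.5e-04). Both lost the call with library size as the only scaling (0.58 and 0.42) and with reads outside genes as a covariate (0.56 and 0.34).

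Of 19 chaperones and ligand partners of *LRP2*, 13 were tested, 6 were higher and 2 lower (median 0.33). *MT2A*, a metallothionein that megalin can take up, had the largest increase, from 24.4 ± 3.38 to 105 ± 30.5 CPM (2.11, adjusted p = 4.2e-05). *SELENOP*, the selenium carrier, had the largest decrease, from 2.12 to 1.10 CPM (-0.95, adjusted p = 0.0084), with no call when reads outside genes were a covariate. The growth factor midkine, *MDK*, was the most abundant of the list, at 560 ± 38.9 and 949 ± 249 CPM (0.76, adjusted p = 0.0052), and was not called with library size as the only scaling (0.42), after the GC and length correction (0.34) or with that covariate (0.041). The vitamin D carrier *GC* and *IGF1* were listed at 0, which says nothing of their expression.

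Of 24 apolipoproteins and other ligands, 16 were tested, 4 were higher and 3 lower (median 0.055). *PLAT*, the tissue plasminogen activator that *LRP1* can clear, fell from 286 ± 13.1 to 141 ± 11.5 CPM (-1.02, adjusted p = 5.3e-05). The call was kept in every fit with the 1.5-fold cutoff. *APOE*, the main apolipoprotein of the brain, was at 10.3 and 8.77 CPM (-0.23, adjusted p = 0.32). Its value was 0.071 without ERRg replicate 2, and it was called lower after the GC and length correction (-0.70) and with reads outside genes as a covariate (-0.97). *APP*, the most abundant ligand of the list, was at 558 and 806 CPM (0.53, adjusted p = 0.0028), and was called with DESeq2 (0.61) and without ERRg replicate 2 (0.71).

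Endocytic adaptors and trafficking partners formed the longest list: 33 of 34 genes were tested, 11 were higher and 1 lower (median 0.37). *CLTB*, a clathrin light chain, rose from 10.9 ± 0.553 to 32.5 ± 8.05 CPM (1.58, adjusted p = 7.8e-05). The clathrin heavy chain *CLTC*, the most abundant gene of the list, was at 914 and 1130.3 CPM (0.31, adjusted p = 0.055) and its value was -0.021 with library size as the only scaling. *MYO6*, a motor that moves newly formed endocytic vesicles, fell from 110 ± 5.56 to 65.2 ± 1.63 CPM (-0.76, adjusted p = 1.1e-04), under the fold after the GC and length correction (-0.45).

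In the Reelin pathway of *VLDLR* and *LRP8*, the ligand and the first intracellular partner fell. *RELN* itself had 23.1, 20.8 and 20.7 CPM with GFP and 6.36, 5.44 and 5.90 CPM with ERRg (log2 fold change -1.87, adjusted p = 3.4e-06). *DAB1*, the adaptor phosphorylated when Reelin binds these receptors, had 31.9, 30.8 and 30.3 CPM with GFP and 14.3, 13.3 and 14.9 CPM with ERRg (-1.13, adjusted p = 2.3e-05). Neither gene's groups overlapped, and both genes were called in every fit with the 1.5-fold cutoff. All 17 genes of the list were tested, 3 were higher and 4 lower (median 0.26). The other lower genes were the PI3-kinase subunits *PIK3R1* (-1.18, adjusted p = 4.5e-05) and *PIK3CA* (-0.90, adjusted p = 2.4e-04), the latter under the fold after the GC and length correction (-0.51) and with reads outside genes as a covariate (-0.54).

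The higher genes of the Reelin list were the kinase *CDK5* (1.19, adjusted p = 3.9e-04), the ephrin *EFNB2* (0.74, adjusted p = 1.6e-04) and the exchange factor *RAPGEF1* (0.60, adjusted p = 0.0014). *CDK5* lost its call with reads outside genes as a covariate (0.42) and *EFNB2* with library size as the only scaling (0.42). *RAPGEF1*, close to the cutoff, lost it in 8 fits, among them those without GFP replicate 1 (0.57) and without ERRg replicate 4 (0.51), with values down to 0.23. *PAFAH1B1*, the LIS1 gene of neuronal migration and the most abundant of the list, was at 196 and 167 CPM (-0.23, adjusted p = 0.056), with a positive value after the GC and length correction (0.10).

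Around the WNT co-receptors, 18 of 23 genes were tested, with 3 higher and 3 lower (median 0.20). *LGR5*, an R-spondin receptor, fell from 260 ± 13.5 to 77.7 ± 3.27 CPM (log2 fold change -1.74, adjusted p = 1.8e-06). Secreted proteins of the Dickkopf family, which bind *LRP5* and *LRP6*, gave the other lower genes: *DKK1* fell from 28.9 ± 2.29 to 11.2 ± 1.49 CPM (-1.37, adjusted p = 3.0e-05) and *DKK2*, the most abundant gene of the list, from 487 ± 21.9 to 299 ± 12.6 CPM (-0.70, adjusted p = 3.0e-04), under the fold after the GC and length correction (-0.57). *PORCN*, which puts the lipid on WNT proteins, rose from 3.17 ± 0.142 to 7.63 ± 1.00 CPM (1.27, adjusted p = 1.4e-04). *WLS*, the WNT carrier, rose from 212 ± 7.91 to 507 ± 44.4 CPM (1.26, adjusted p = 2.2e-05), and *CSNK1G2*, a kinase of the *LRP6* tail, rose as well (0.79, adjusted p = 5.8e-04), but lost its call in 4 fits, with values of 0.28 to 0.45.

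The tested partners of *LRP4* in the Agrin pathway gave 1 call, of 6 tested among 8 genes (median 0.18). The ligand *AGRN* was at 68.4 ± 2.25 and 80.6 ± 4.77 CPM (0.24, adjusted p = 0.051), with a negative value under library size as the only scaling (-0.081) and after the GC and length correction (-0.17). The kinase *MUSK* was at 6.42, 6.11 and 5.01 CPM with GFP and 5.16, 2.29 and 2.82 CPM with ERRg. Its groups overlapped, and its call as lower (-0.79, adjusted p = 0.031) was lost without GFP replicate 1 or 3 or ERRg replicate 3 or 4, where the adjusted p was 0.087 to 0.13, and after the GC and length correction (-0.50). With reads outside genes as a covariate the value of *MUSK* was 0.12.

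Of 21 genes of receptor shedding and turnover, 17 were tested and 5 were called, all higher (median 0.22). *APH1A*, a subunit of the γ-secretase that cuts the receptors in the membrane, rose from 125 ± 11.6 to 312 ± 70.1 CPM (1.31, adjusted p = 1.3e-04), and *PSENEN*, another subunit, rose too (1.28, adjusted p = 3.8e-04). *FURIN*, which cleaves the *LRP1* precursor, was higher (0.80, adjusted p = 2.1e-04), but not called with library size as the only scaling (0.48), after the GC and length correction (0.35) or with reads outside genes as a covariate (0.55). *UBE2D3*, a ubiquitin-conjugating enzyme and the most abundant of the list, was at 273 and 319 CPM (0.22, adjusted p = 0.085). *MYLIP*, the ubiquitin ligase that degrades *VLDLR* and *LRP8*, was at 13.2 and 10.2 CPM (-0.37, adjusted p = 0.014), under the fold of a call, and was called lower with library size as the only scaling (-0.69).

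**Figure D5:**
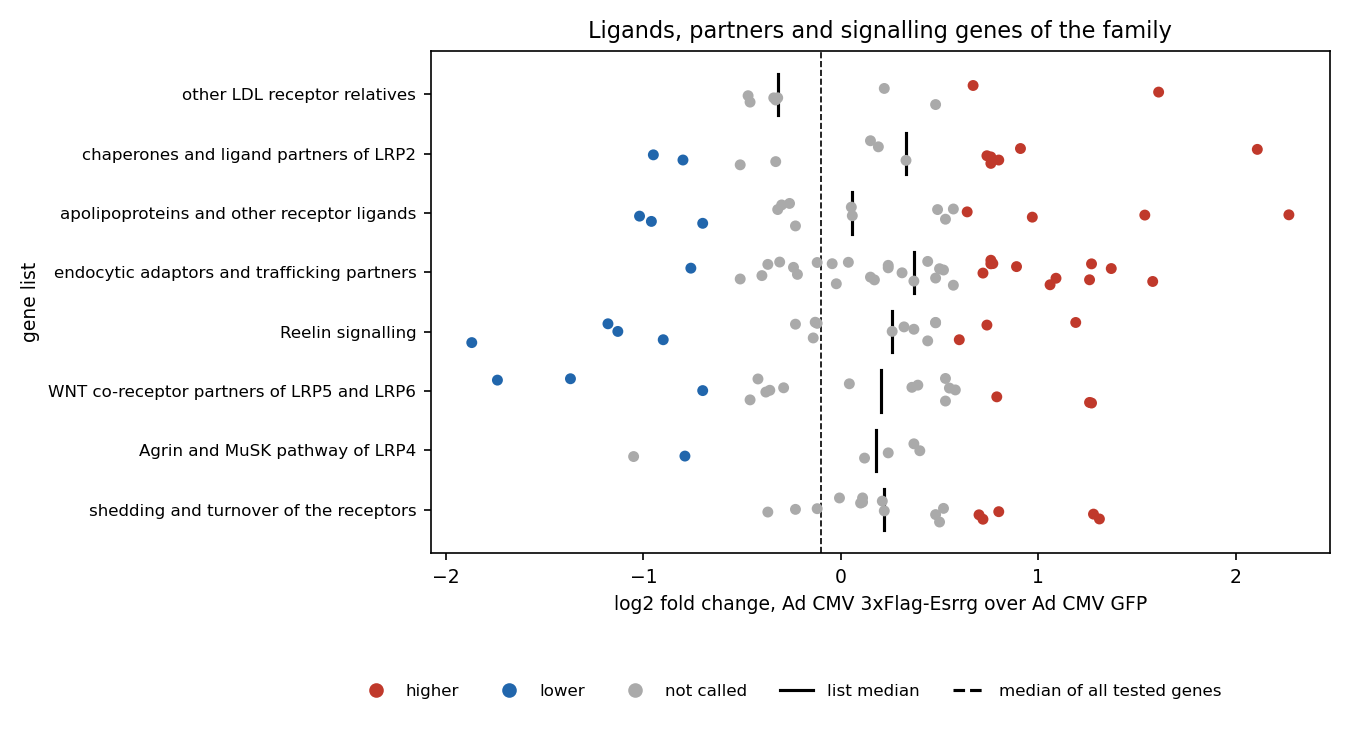
Log2 fold change (ERRg over GFP) of the tested genes in 8 lists of ligands, partners and signalling genes, each point 1 gene, red where called higher, blue where called lower and grey where not called, with a black bar at the list median and a dashed line at the median of all tested genes (-0.10). The list medians run from -0.32 to 0.37, and *RELN* (-1.87) and *LGR5* (-1.74) are the leftmost points of all lists.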

How the data were processed

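The authors deposited raw counts of reads per human gene, made with Trim Galore 0.6.7, STAR 2.7.9a and HTSeq 0.11.3 on GRCh38 per the labels' processing notes. The annotation release and strand setting are not given in the sources used here. The counts are whole numbers for 67060 genes and 5 summary entries, which held 52.3% to 64.0% of the reads and were left out of library sizes. Identifiers were matched without version to GENCODE 44 (90.1%). The others held 0.153% of the counts.

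Counts were fitted in R 4.3.3 with edgeR 4.0.16 (filterByExpr, TMM factors, quasi-likelihood test, 3 against 3 libraries), and called at 1.5-fold or more with a Benjamini-Hochberg adjusted p below 0.05. CPM uses the TMM factors. Standard errors were taken as the size of the log2 fold change divided by the root of F. *LRP2* got a bound against 3 counts per GFP library. Alternatives were DESeq2 1.42.0, RLE factors, library size only, other filters and cutoffs, protein-coding genes, each library left out, a replicate block, a GC and length correction by mgcv 1.9.3, both together, and reads outside genes as a covariate. Scripts were tested on simulated data. Depth was 24969759 to 40859666 counts per library, and limits from counts cover counting error only.

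The members and gene lists were chosen with earlier results of these data known. Named genes are the members, partners chosen by role, in each list the called gene of largest fold in each direction with a mean of at least 1 CPM and the most abundant gene, the 5 genes nearest to *LRP2*, and neighbouring and overlapping genes. Other genes were named after their values were seen: the remaining called genes of the Reelin and WNT lists, *PSENEN*, *FURIN*, genes listed at 0, and the genes around *LRP6*. A few genes chosen by these rules are not reported.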

Additional observations from a re-analysis of the deposited data

Results flagged for a closer look

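Reads that overlapped more than 1 gene and were left uncounted (ambiguous reads) are outside every comparison above and were more frequent with Ad CMV 3xFlag-*Esrrg*. Their share was 5.69%, 9.84% and 9.79% in ERRg replicates 2, 3 and 4, above the 4.55% to 4.87% of the GFP libraries. Of the members, *LRP8*, *VLDLR* and *LRP4* have the largest shares of exon bases covered by other genes, at 9.69%, 8.24% and 5.89%, and the shares of *LRP2*, *LRP5*, *LRP6* and *LRP10* are 0. The part of ambiguous reads in the members' values was not tested.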

How the results depend on the processing

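The bound for *LRP2* was 213-fold, 225-fold with DESeq2 or RLE size factors, 171-fold with library size only and 206- to 223-fold with 1 library left out. Members called higher and lower numbered 2 and 1. They were 1 and 2 with library size only, among protein-coding genes, after the GC and length correction, and with that correction in the replicate block. At 2-fold 0 were higher, with no fold cutoff 2 were lower, and with 1 library left out the numbers stayed at 2 and 1. With reads outside genes as a covariate they were 3 and 1: *LRP5* (0.52) lost its call, and *LRP1B* (0.96) and *LRP8* (0.67) gained one. The groups did not overlap in that covariate, so the fit cannot well separate it from the virus. *LRP1B* was at -0.00025 with library size only. *LRP10* was at -0.069 with library size only, -0.064 after the GC and length correction, -0.072 with that correction in the block and -0.039 with reads outside genes as a covariate.

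Pathway genes higher and lower, 34 and 14, were 15 and 6 at 2-fold, 59 and 28 with no fold cutoff, and 16 and 33 with library size only. With the covariate 14 were higher, and with 1 library left out 32 to 52 were higher (52 without ERRg replicate 2) and 12 to 14 lower. All genes higher and lower, 4234 and 4117, were 1952 and 1982 at 2-fold, 2200 and 7566 with library size only, 2814 and 2468 among protein-coding genes, 1773 and 1323 with the covariate, and 3710 to 5820 and 2895 to 5141 with 1 library left out. The causes were not tested, except that a stricter cutoff or fewer genes lower a count by construction.

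Only replicate numbers 3 and 4 occur in both groups, and deviations of same-numbered libraries correlated at 0.075 and 0, so the numbers were not taken as pairs. The replicate block, which in effect compares only replicates 3 and 4, gave 4742 genes higher and 5693 lower. With so few libraries its p-values measure little of the spread between libraries, so its calls carry less weight. Depth limits *LRP2* with GFP to its floor.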
